A study of Mus musculus with 38 samples.

Results

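The data were the fibroblast libraries of a study of mouse hearts, taken as the count columns labelled as sorted fibroblasts from infarcted, vehicle-treated mice (Control-AMI, 4 libraries) and from Sham mice (4 libraries), which made 8 of the 38 libraries in the series. The study asked what pretreatment with the SGLT2 inhibitor empagliflozin changes in single cell populations of the heart early after acute myocardial infarction (AMI). The comparison described here is the infarction itself in animals without the drug, and asks which transcripts differ in the fibroblasts of reperfused ischemic myocardium. All mice were male C57BL/6, 8 to 12 weeks of age, and both groups received vehicle (5% DMSO in saline) by mouth every day for 6 weeks. In Control-AMI mice the left anterior descending coronary artery was then tied for 30 min and reopened for 2 h, while in Sham mice the chest was opened without ligation. A further group of 4 fibroblast libraries, EMPA-Pre-AMI, received empagliflozin at 10 mg/kg per day for the same 6 weeks before the same ischemia and reperfusion, and is used below only for side-by-side values and for the estimate of the spread.

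Each library held RNA from 2 pooled hearts. The hearts were digested with collagenase, the ischemic part below the suture was kept, and cells negative for CD45 and CD31 and positive for CD90 (Thy1) were sorted. Which part of the Sham hearts was kept is not stated. The labels do not say which hearts gave which library, so p-values measure the spread between these libraries. Values given in series follow replicates 1 to 4, and log2 fold changes are Control-AMI against Sham, ± SE. The RNA was read by 3′ end sequencing, in which each transcript gives reads near its end only, so that values are counts scaled to the library total (CPM) with no correction for transcript length. Total counts were 2122453 to 2821386 (median 2358163) in Sham and 2159221 to 2812389 (median 2616126) in Control-AMI, and 3 counts corresponded to 1.06 to 1.54 CPM. Of the 35682 genes in the matrix, 10691 had enough counts to be tested.

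Cardiac fibroblasts hold the collagen network of the heart, sense strain and injury, and signal to myocytes, vessels and leukocytes. After infarction they are known to respond early with cytokine, stress and immediate early transcripts, and only over days do they proliferate and become myofibroblasts that lay down a scar. The transcripts below are therefore ordered by role: matricellular and protease genes, metal and redox defence, hormone-responsive genes, cytokine signals, growth control, cytoskeleton, matrix and, last, the factors that mark fibroblast identity.

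The labelled cell type was checked against marker genes. The fibroblast markers summed to 37458 to 56762 CPM in Sham and 36375 to 39912 CPM in Control-AMI. Thy1, the gene of the sort antigen, was at 53.3, 59.4, 42.1 and 49.2 CPM in the Sham libraries and 52.1, 64.2, 57.7 and 57.6 CPM in the Control-AMI libraries (log2 fold change 0.18 ± 0.21, FDR: 0.679). Pecam1, which encodes CD31, was at 95, 104, 16.9 and 10.6 CPM in Sham and 87.0, 116, 123 and 14.8 CPM in Control-AMI, and Ptprc, which encodes CD45, was at 1.502, 22.0, 2.17 and 0 CPM in Sham and 0.412 to 1.15 CPM in Control-AMI. The endothelial markers together were at 142 to 718 CPM in Sham (median 423) and 257 to 906 CPM in Control-AMI (median 844), against 7945 to 17477 CPM in the libraries sorted for endothelial cells (ECs) of the same series. The macrophage markers were at 17.4 to 706 CPM in Sham, with the highest value in Sham replicate 2, and at 39.7 to 56.3 CPM in Control-AMI. The mural markers were at 1136 to 3121 CPM in Sham and 967 to 6383 CPM in Control-AMI, with the highest value in Control-AMI replicate 4. Erythroid markers were at 61.9 to 88.0 CPM in Sham and 138 to 743 CPM in Control-AMI. No marker that could be tested passed between the groups. Only 4 of the 10 macrophage markers had enough counts for the test, and Ptprc did not. The erythroid sums did not overlap, and the 4 erythroid markers tested were higher by the estimate (lowest FDR: 0.0529, for Hbb-bt). With the summed endothelial markers as a term in the model, 465 genes passed in place of the 445 given below, 369 of them shared. Mitochondrially encoded genes took 4.10, 12.5, 6.17 and 7.88% of counts in Sham and 3.49, 4.33, 3.94 and 6.28% in Control-AMI. In bulk RNA, fewer cells of a type and less RNA per cell cannot be told apart.

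**Figure D1:**
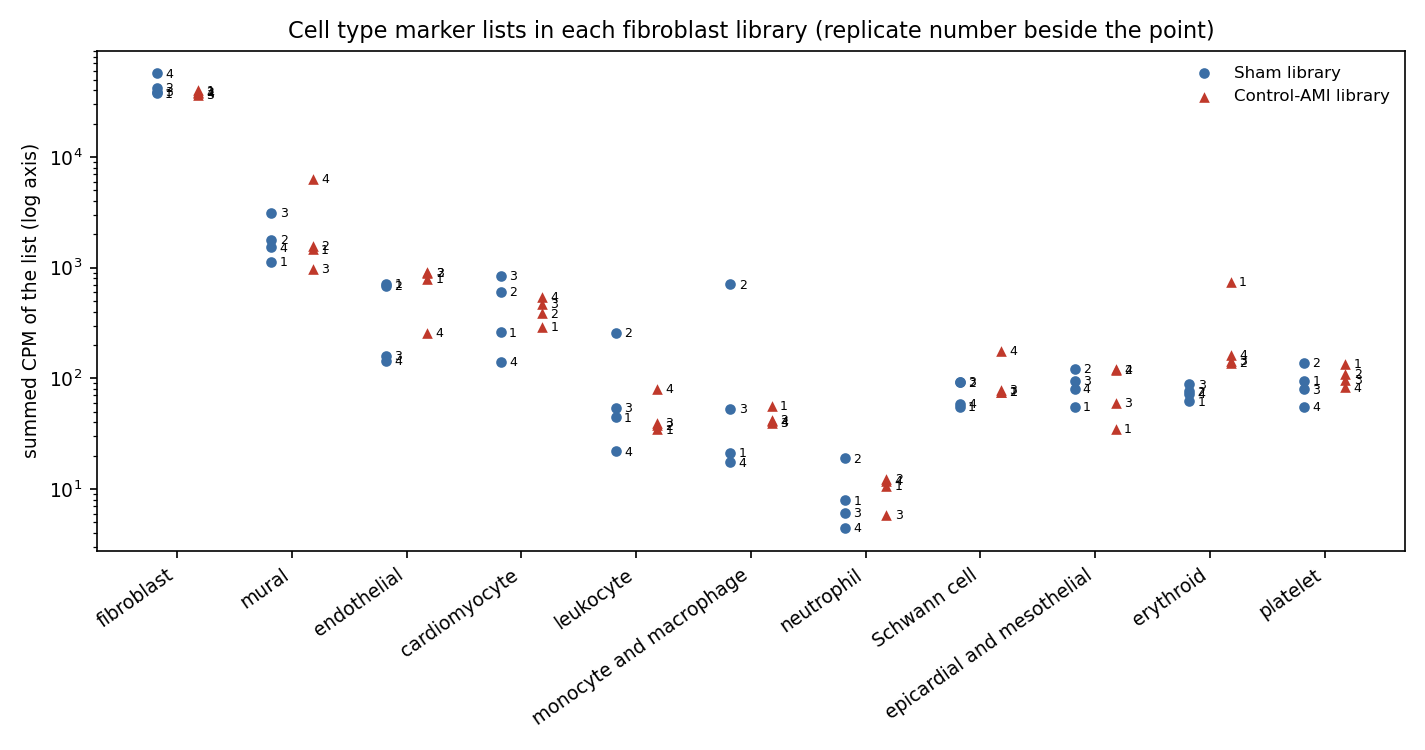
Summed expression of marker genes of each cell type (CPM, log axis) in the 4 Sham and the 4 Control-AMI fibroblast libraries, with each point labelled by its replicate number. Sham replicate 2 stands highest for macrophage (706 CPM) and leukocyte (256 CPM) markers, and Control-AMI replicate 4 for mural markers (6383 CPM).

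The labels also carry a number per library from the sequencing sample sheet, whose meaning they do not state. Sham replicates 2, 3 and 4 and Control-AMI replicate 4 had numbers of 8 or below, and Sham replicate 1 and Control-AMI replicates 1, 2 and 3 had numbers of 46 to 56. The first principal component of the 12 fibroblast libraries, with 29.9% of the variance, separated the low from the high numbers. Each comparison was therefore also read within the low and within the high numbers, although each of these runs holds a lone library of one group.

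At a false discovery rate (FDR) below 0.05 in edgeR's quasi-likelihood test, 445 of the 10691 genes differed, which was 4.16% of those tested. Of these, 320 were higher in Control-AMI (2.99%) and 125 were lower (1.17%), while the median log2 fold change of all genes tested was -0.03. The median log2 fold change was 1.17 among the genes that rose and -1.23 among those that fell. Changes above 2 on the log2 scale were found for 51 genes that rose, and changes below -2 for 8 that fell. The Sham and Control-AMI libraries did not overlap in 432 of the 445 genes, against 1315 of all tested genes (12.3%, with 6.63% higher and 5.67% lower). Within both runs of sheet numbers, 440 of the 445 lay on the same side (317 of 320 and 123 of 125), against 3079 of all tested genes (28.8%, with 14.3% higher and 14.5% lower). The count of genes depended on single libraries: it was 228 without Sham replicate 2, 245 without Sham replicate 3, 239 without Sham replicate 4, 267, 244 and 245 without Control-AMI replicates 1, 2 and 3, and 195 without Sham replicate 2 and Control-AMI replicate 4 together. Of the 445 genes, 170 passed in each of the 8 fits that left out 1 Sham or Control-AMI library (151 that rose and 19 that fell), and 17 passed in none.

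**Figure D2:**
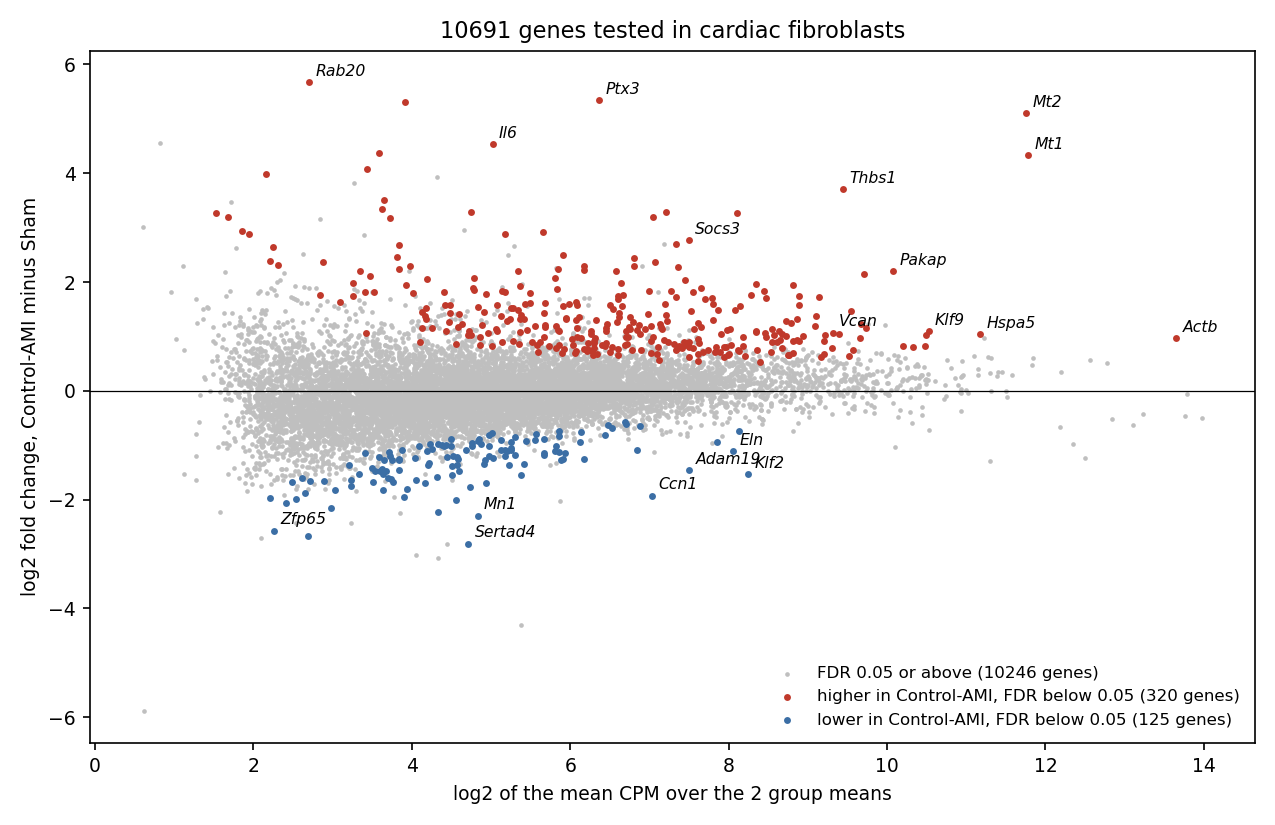
Log2 fold change of Control-AMI against Sham (vertical axis) by mean expression (log2 CPM, horizontal axis) for the 10691 genes tested in fibroblasts. Of these, 320 were higher, 125 were lower and the rest did not pass the test, and the genes that rose reach farther from 0 than those that fell.

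Thbs1, which encodes the matricellular protein thrombospondin-1, an activator of latent TGF-beta, had the smallest p-value of all genes. It lies at chr2:117941974-117957616 (GRCm39, ENSMUSG00000040152) and was at 173, 65.1, 75.5 and 83.3 CPM in the Sham libraries and 1138, 1089, 1341 and 1609 CPM in the Control-AMI libraries. Every Control-AMI library stood far above every Sham library (log2 fold change 3.70 ± 0.28, FDR: 3.1e-06). The 250 bases before its start in the GENCODE annotation (chr2:117941724-117941973, plus strand) are shown because they hold a pair of matches to the AP-1 site TGANTCA, read on both strands and set in capitals, from base -141 to -135 and from -60 to -54.
Thbs1: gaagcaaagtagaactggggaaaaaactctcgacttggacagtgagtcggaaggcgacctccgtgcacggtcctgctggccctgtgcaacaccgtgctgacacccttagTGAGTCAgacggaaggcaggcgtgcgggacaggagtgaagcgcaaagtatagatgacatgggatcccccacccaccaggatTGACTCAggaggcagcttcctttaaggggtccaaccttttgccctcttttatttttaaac
A match to these letters was found in 6.18% of all protein-coding promoters of this length.

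Some genes of proteolysis in the matrix rose as well. Of 28 proteases and inhibitors tested, 5 rose and none fell (17.9%, against 4.16% of all genes tested). Their median log2 fold change was 0.16. Adamts4, an aggrecanase that cleaves proteoglycans such as versican, was at 35.7, 24.2, 24.3 and 19.5 CPM in the Sham libraries and 130.3, 252, 157 and 409.9 CPM in the Control-AMI libraries (log2 fold change 3.19 ± 0.45, FDR: 0.00193). Its relatives Adamts1 (108 to 184 CPM in Sham and 356 to 734 CPM in Control-AMI, log2 fold change 1.75 ± 0.30, FDR: 0.00313) and Adamts9 (3.07 to 22.5 CPM in Sham and 49.9 to 192 CPM in Control-AMI, log2 fold change 2.92 ± 0.61, FDR: 0.0212) rose too, and in neither did the groups overlap. Timp3, the matrix-bound inhibitor of metalloproteases, rose by a smaller estimate, from 906 to 1142 CPM in Sham to 1579.8 to 2278 CPM in Control-AMI (log2 fold change 0.82 ± 0.16, FDR: 0.00929). In fits without 1 library, Adamts9 passed in 6 of the 8 (highest FDR: 0.0659, without Sham replicate 2).

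**Figure D3:**
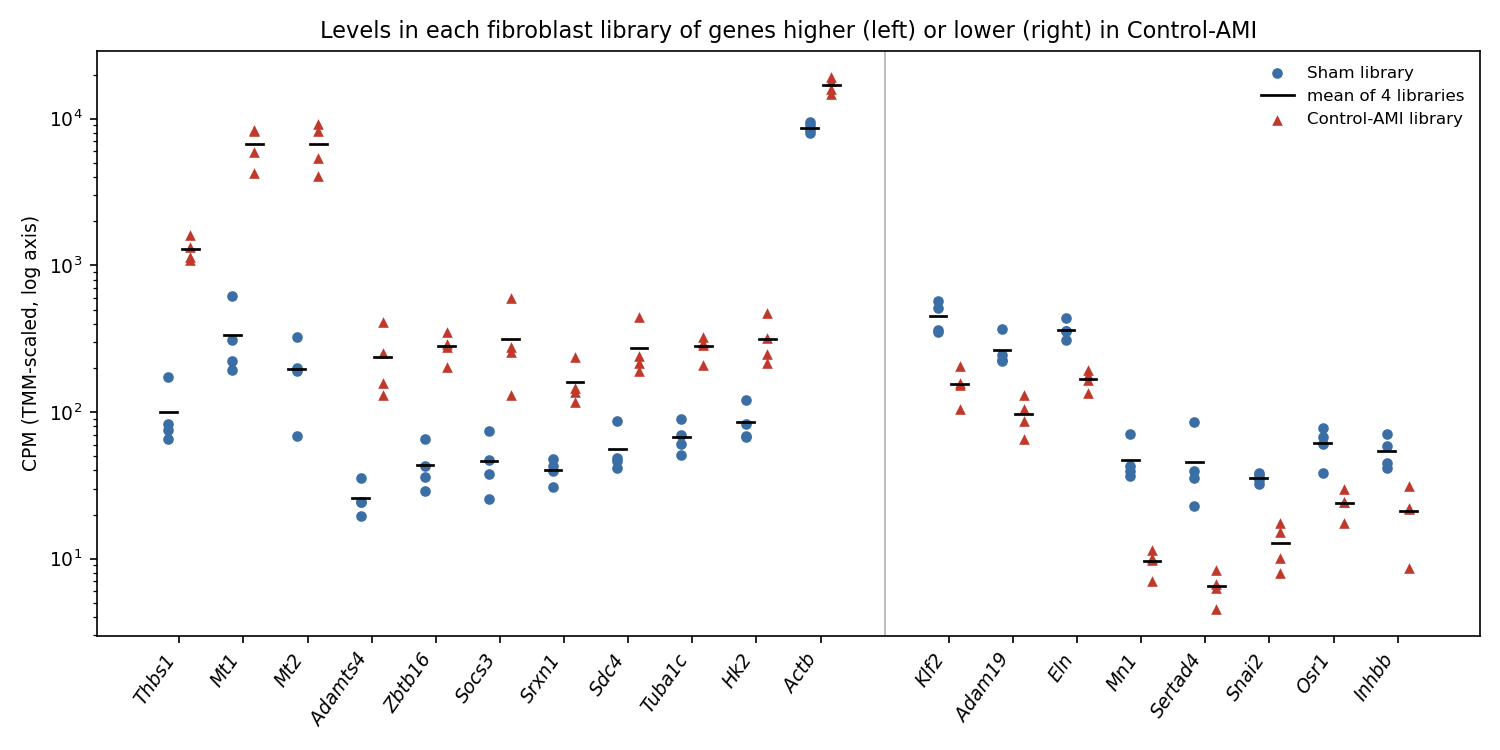
Expression (CPM, log axis) of 11 genes that rose and 8 that fell, with 1 point for each Sham (circles) and Control-AMI (triangles) library and a bar at the mean of each 4. The 2 groups do not overlap for any of the 19 genes, and Mt1 and Mt2 show the widest gap.

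The list of NRF2 targets, metal and redox defence had 41 tested genes, of which 4 rose and none fell (9.76%, against 4.16% of all genes tested, with a median log2 fold change of 0.18). The metallothioneins Mt1 and Mt2 bind zinc and copper and are induced by metals, glucocorticoids and oxidants. Mt1 was at 614, 308, 192 and 222 CPM in the Sham libraries and 4253, 8347, 5919 and 8292 CPM in the Control-AMI libraries (log2 fold change 4.33 ± 0.41, FDR: 5.75e-05). Mt2 was at 324, 189, 68.5 and 199 CPM in the Sham libraries and 4092, 8218, 5436 and 9231 CPM in the Control-AMI libraries (log2 fold change 5.11 ± 0.51, FDR: 0.000147). The lowest Control-AMI library exceeded the highest Sham library for both. Mt1 and Mt2 are close copies of each other, so that the division of reads between them depends on the authors' quantification. Srxn1, which encodes sulfiredoxin, the enzyme that reactivates oxidised peroxiredoxins, was at 47.7, 30.8, 42.9 and 39.6 CPM in the Sham libraries and 138, 145, 117 and 238 CPM in the Control-AMI libraries (log2 fold change 1.98 ± 0.25, FDR: 0.00023). Txnrd1, cytosolic thioredoxin reductase, was at 40.03 to 83.7 CPM in Sham and 155 to 225 CPM in Control-AMI (log2 fold change 1.84 ± 0.24, FDR: 0.000344). Neither pair of groups overlapped. The other 37 genes of the list did not pass the test.

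The promoters of these genes are shown because metal and antioxidant response elements are the known routes to their induction. In Mt1 (chr8:94905460-94905709, plus strand) and Mt2 (chr8:94898882-94899131, plus strand), capitals mark the core of the metal response element, TGCACNC or TGCGCNC on either strand. In Srxn1 (chr2:151947194-151947443, plus strand), they mark the core of the antioxidant response element, TGACNNNGC or TGAGNNNGC on either strand.
Mt1: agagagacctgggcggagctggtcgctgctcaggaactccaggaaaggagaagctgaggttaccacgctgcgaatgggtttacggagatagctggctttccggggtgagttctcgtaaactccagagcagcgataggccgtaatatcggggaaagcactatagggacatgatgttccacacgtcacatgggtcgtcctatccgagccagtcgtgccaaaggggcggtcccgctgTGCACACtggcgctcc
Mt2: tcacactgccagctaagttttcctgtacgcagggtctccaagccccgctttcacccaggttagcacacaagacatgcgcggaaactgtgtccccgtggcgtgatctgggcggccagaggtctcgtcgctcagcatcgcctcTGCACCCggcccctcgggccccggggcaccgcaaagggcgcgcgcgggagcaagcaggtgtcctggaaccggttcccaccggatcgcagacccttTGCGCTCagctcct
Srxn1: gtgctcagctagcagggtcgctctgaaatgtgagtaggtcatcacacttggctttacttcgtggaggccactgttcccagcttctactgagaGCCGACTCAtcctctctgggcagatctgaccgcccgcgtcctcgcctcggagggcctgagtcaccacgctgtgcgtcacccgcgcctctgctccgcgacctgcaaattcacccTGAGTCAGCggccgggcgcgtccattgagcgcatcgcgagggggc
Within this window, Mt1 held 1 match, Mt2 held 2 and Srxn1 held 2. Of those in Srxn1, the match nearer to the start, TGAGTCAGC, also contains the letters of an AP-1 site. The window ends at the annotated start, and matches farther upstream or past that start were not counted. The metal core was present in 22.0% and the antioxidant core in 22.1% of all protein-coding promoters, so neither was rare.

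Of the gene lists described here, leaving aside the PYHIN and Ifitm families below, that of glucocorticoid-responsive genes had the highest share of called genes. Those 2 families (5 of 7 and 2 of 4 tested genes higher) were chosen after their values were seen. In the glucocorticoid list, 11 of 23 tested genes were higher and none lower (median log2 fold change 1.18). Mt1 and Mt2 are also members of this list. Zbtb16, a zinc-finger transcription factor strongly induced by glucocorticoids in many cells, was at 65.3, 42.7, 29.1 and 36.2 CPM in the Sham libraries and 279, 292, 203 and 349.9 CPM in the Control-AMI libraries (log2 fold change 2.70 ± 0.26, FDR: 4.62e-05). Map3k6, a stress kinase, was at 56.3, 41.3, 24.7 and 29 CPM in the Sham libraries and 160.2, 224, 157 and 203 CPM in the Control-AMI libraries (log2 fold change 2.30 ± 0.24, FDR: 5.75e-05). The groups stood apart for both, with no library between them. Klf9, a Krüppel-like factor, was at 729 to 1069 CPM in Sham and 1529 to 2577 CPM in Control-AMI (log2 fold change 1.09 ± 0.21, FDR: 0.00597), and Fkbp5, the co-chaperone that restrains the glucocorticoid receptor, was at 44.7 to 86.7 CPM in Sham and 106.2 to 235 CPM in Control-AMI (log2 fold change 1.18 ± 0.28, FDR: 0.0249). The mTORC1 inhibitor Ddit4 (log2 fold change 1.82), the EGF receptor inhibitor Errfi1 (1.94), glutamine synthetase Glul (1.25), the cell-cycle inhibitor Cdkn1a (1.75) and the kinase Sgk1 (1.58) rose with FDR values from 0.00269 to 0.0124. Tsc22d3, which encodes GILZ and is a usual glucocorticoid target, was at 131 to 249 CPM in Sham and 146 to 276 CPM in Control-AMI (log2 fold change 0.16 ± 0.23, FDR: 0.756) and its groups overlapped. The receptor itself, Nr3c1, was at 171 to 244 CPM in Sham and 121 to 195 CPM in Control-AMI (log2 fold change -0.43 ± 0.21, FDR: 0.258). Without 1 library, Sgk1 passed in 7 of the 8 fits (FDR: 0.0533 without Sham replicate 4) and Fkbp5 in 4 (highest FDR: 0.0791, without Sham replicate 3).

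Among 17 circadian clock genes tested, 3 rose and none fell (17.6%, against 4.16% of all genes tested, median log2 fold change 0.04). Cry2, a repressor of the clock, was at 49 to 58.5 CPM in Sham and 79.7 to 125 CPM in Control-AMI (log2 fold change 0.87 ± 0.22, FDR: 0.0328). Nr1d2, a nuclear receptor of the clock's second loop, was at 46.2 to 67.7 CPM in Sham and 81.9 to 162 CPM in Control-AMI (log2 fold change 1.10 ± 0.26, FDR: 0.0252), and Nfil3, a repressor of D-box genes, was at 21.6 to 43.5 CPM in Sham and 52.9 to 68.3 CPM in Control-AMI (log2 fold change 1.12 ± 0.29, FDR: 0.0384). The groups of these genes lay close together, and without 1 library the calls held in 2, 4 and 1 of the 8 fits (highest FDR: 0.0943 without Sham replicate 3, 0.0878 without Control-AMI replicate 2 and 0.122 without Sham replicate 2).

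In the interleukin-6 family, 5 of 16 tested genes rose and none fell (31.2%, against 4.16% of all genes tested, median log2 fold change 0.47). Those that rose covered ligand, receptor, transcription factor and feedback. Il6 itself was at 3.75, 3.96, 0 and 2.73 CPM in the Sham libraries and 14.6, 68.7, 54.7 and 112 CPM in the Control-AMI libraries. It was near the limit of detection in Sham and above that range in every Control-AMI library (log2 fold change 4.53 ± 0.76, FDR: 0.00691). The receptor chain Il6ra was at 65.0 to 78.8 CPM in Sham and 136 to 179.9 CPM in Control-AMI (log2 fold change 1.12 ± 0.18, FDR: 0.00204), and Stat3, the transcription factor the receptor activates, was at 218 to 402 CPM in Sham and 559 to 936 CPM in Control-AMI (log2 fold change 1.19 ± 0.24, FDR: 0.0103). Socs3, the feedback inhibitor that Stat3 induces, was at 46.9, 37.8, 25.6 and 74.5 CPM in the Sham libraries and 131, 259, 278 and 597 CPM in the Control-AMI libraries (log2 fold change 2.77 ± 0.60, FDR: 0.0273). Its Control-AMI libraries spread widely above the Sham range, and the call held in only 2 of the 8 fits without 1 library (highest FDR: 0.0841, without Sham replicate 2). The kinase Pim1 was at 69.4 to 223 CPM in Sham and 274 to 554 CPM in Control-AMI (log2 fold change 1.55 ± 0.31, FDR: 0.0101).

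In the list of acute phase and complement genes, 3 of 20 tested genes rose and none fell (15.0%, against 4.16% of all genes tested). The median log2 fold change of the list was 0.39. The 3 were among its 10 acute phase genes, and none of its 10 complement genes passed. Ptx3, the long pentraxin released locally in injured tissue, was at 6.76, 3.52, 2.17 and 3.07 CPM in the Sham libraries and 49.1, 184, 81.4 and 330.1 CPM in the Control-AMI libraries (log2 fold change 5.34 ± 1.04, FDR: 0.0203). The groups were far apart, though the Control-AMI libraries differed from each other several fold, and the call held in 5 of the 8 fits without 1 library (highest FDR: 0.0749, without Sham replicate 4). The protease inhibitor Serpina3n was at 38.3 to 49.9 CPM in Sham and 84.3 to 205 CPM in Control-AMI (log2 fold change 1.57 ± 0.29, FDR: 0.00535), and Serpina3f was at 0 to 1.76 CPM in Sham and 15.3 to 59.7 CPM in Control-AMI (log2 fold change 5.30 ± 0.71, FDR: 0.000732). Both belong to a cluster of similar genes, so their counts are uncertain to the extent that reads were shared.

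The promoters of Il6 (chr5:30217862-30218111, plus strand) and Ptx3 (chr3:66127081-66127330, plus strand) are shown because both hold a match to the NF-kB site, in capitals, close to the start.
Il6: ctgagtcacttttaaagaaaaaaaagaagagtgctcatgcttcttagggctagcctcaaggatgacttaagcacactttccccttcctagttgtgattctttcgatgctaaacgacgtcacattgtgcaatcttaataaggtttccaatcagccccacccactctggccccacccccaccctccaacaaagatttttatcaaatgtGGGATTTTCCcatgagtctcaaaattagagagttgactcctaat
Ptx3: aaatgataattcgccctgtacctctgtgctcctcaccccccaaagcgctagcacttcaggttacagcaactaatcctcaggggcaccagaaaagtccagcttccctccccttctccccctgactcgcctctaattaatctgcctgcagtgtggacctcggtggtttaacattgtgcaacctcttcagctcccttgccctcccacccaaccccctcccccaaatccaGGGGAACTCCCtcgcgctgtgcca
The match in Il6 ran from base -44 to -35. In Ptx3, 2 matches overlapped, from -24 to -15 and from -23 to -14, which are shown as a single run of capitals. The site was found in 4.23% of all protein-coding promoters.

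In the NF-kB pathway, 9 of 34 tested genes rose and none fell (26.5%, against 4.16% of all genes tested, median log2 fold change 0.67). They included subunits, inhibitors and receptors. The subunits Rela (108 to 131 CPM in Sham and 193 to 247 CPM in Control-AMI, log2 fold change 0.82 ± 0.18, FDR: 0.0178) and Rel (7.17 to 18 CPM in Sham and 26.6 to 32.6 CPM in Control-AMI, log2 fold change 1.09 ± 0.27, FDR: 0.0299) rose moderately. Irak3, the kinase that dampens Toll-like and interleukin-1 receptor signals, was at 68.3, 30.8, 38.6 and 47.5 CPM in the Sham libraries and 189.7, 152, 169 and 117 CPM in the Control-AMI libraries (log2 fold change 1.76 ± 0.23, FDR: 0.000324). Its groups did not overlap. Birc3, a ubiquitin ligase of the TNF receptor complex, was at 11.4 to 19.1 CPM in Sham and 32.2 to 93.8 CPM in Control-AMI (log2 fold change 1.84 ± 0.33, FDR: 0.00439), and the nuclear IkB protein Bcl3 was at 1.71 to 6.60 CPM in Sham and 11.6 to 39.1 CPM in Control-AMI (log2 fold change 2.68 ± 0.54, FDR: 0.0106). Ripk1, Nfkbiz, Il1r1 and Birc2 rose as well, with log2 fold changes of 1.05, 1.56, 1.31 and 0.78 (FDR: 0.019, 0.0255, 0.0253 and 0.0487). Without 1 library, Ripk1 passed in 3 of the 8 fits (highest FDR: 0.0687, without Sham replicate 3) and Nfkbiz in 2 (highest FDR: 0.0909, without Sham replicate 4). Il1r1 passed in 3 (highest FDR: 0.0773, without Sham replicate 4) and Birc2 in 1 (highest FDR: 0.141, without Sham replicate 2). Rela passed in 7 (FDR: 0.0572 without Sham replicate 4) and Rel in 3 (highest FDR: 0.0833, without Control-AMI replicate 1).

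None of 14 tested chemokines passed the test, although their median log2 fold change was 0.51. Cxcl5, a neutrophil attractant, was at 3.38, 10.6, 5.64 and 3.76 CPM in the Sham libraries and 16.5, 71.3, 31.5 and 59.7 CPM in the Control-AMI libraries (log2 fold change 2.96 ± 0.97, FDR: 0.128). Cxcl2 was at 22.9, 19.8, 1.73 and 0.683 CPM in the Sham libraries and 26.8, 97.6, 42.1 and 85.6 CPM in the Control-AMI libraries (log2 fold change 2.49 ± 0.91, FDR: 0.169). For both, the libraries of each group differed from each other by several fold, and neither gene reached the threshold. Cxcl12, a homing signal of resident fibroblasts, was at 72.1 to 135 CPM in Sham and 103 to 144 CPM in Control-AMI (log2 fold change 0.42 ± 0.21, FDR: 0.295).

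Of 18 tested genes of leukocyte adhesion, prostanoids and hyaluronan, 3 rose and none fell (16.7%, against 4.16% of all genes tested). The median log2 fold change of the list was 0.52. Has1, a hyaluronan synthase, was at 1.502, 3.96, 0.867 and 1.71 CPM in the Sham libraries and 9.58, 24.4, 20.3 and 38.3 CPM in the Control-AMI libraries (log2 fold change 3.51 ± 0.62, FDR: 0.0048). Every Control-AMI library was above the Sham range. The prostaglandin E receptor Ptger4 was at 19.1 to 33.4 CPM in Sham and 54 to 193 CPM in Control-AMI (log2 fold change 2.22 ± 0.42, FDR: 0.0098). Sele, E-selectin, was at 0.751, 0, 1.73 and 2.05 CPM in the Sham libraries and 9.58, 16.5, 8.72 and 47.3 CPM in the Control-AMI libraries (log2 fold change 4.08 ± 0.70, FDR: 0.00415). Sele is a gene of activated endothelium, and the summed endothelial markers had a median of 423 CPM in Sham and 844 CPM in Control-AMI. With these markers in the model, the log2 fold change of Sele was 4.67 (FDR: 5.58e-05), and without Sham replicate 2 and Control-AMI replicate 4 it was 2.90 (FDR: 0.00951). The term follows the summed markers and not the Sele made per endothelial cell, so the source of this RNA was not tested.

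Among the 27 tested genes of the interferon-response list, none rose and 1 fell (3.7%, against 4.16% of all genes tested, with a median log2 fold change of -0.03). That call held in 4 of the 8 fits without 1 library. The list leaves out 2 gene families linked to interferon, which were chosen after their values were seen. Of 7 tested genes of the PYHIN family, which encodes interferon-inducible proteins, among them sensors of DNA, 5 rose and none fell (median log2 fold change 1.48). Ifi204 was at 57.1, 36.1, 37.7 and 47.8 CPM in the Sham libraries and 124, 155, 176 and 142 CPM in the Control-AMI libraries (log2 fold change 1.74 ± 0.21, FDR: 0.000209). Ifi211 was at 322, 164, 232 and 232 CPM in the Sham libraries and 603, 857, 733 and 633 CPM in the Control-AMI libraries (log2 fold change 1.57 ± 0.21, FDR: 0.000457). In neither did the groups overlap. Ifi207 (log2 fold change 1.83 ± 0.30, FDR: 0.0023), Ifi205 (log2 fold change 1.48 ± 0.25, FDR: 0.0032) and Ifi203 (log2 fold change 1.03 ± 0.27, FDR: 0.0451) rose too, whereas Mndal and Aim2 did not pass. These genes lie together on chromosome 1 and are similar in sequence, so their counts are uncertain to the extent that reads were shared. Without 1 library, Ifi203 passed in 1 of the 8 fits (highest FDR: 0.127, without Sham replicate 4) and the other 4 in all 8. The Ifitm family is named after interferon-induced membrane proteins, and 2 of its 4 tested genes rose. Ifitm1 was at 15.0 to 28.6 CPM in Sham and 42.5 to 76.2 CPM in Control-AMI (log2 fold change 1.32 ± 0.29, FDR: 0.0161). It passed in 6 of the 8 fits (highest FDR: 0.0606, without Sham replicate 2). Ifitm5 was at 0 to 1.88 CPM in Sham and 1.92 to 8.26 CPM in Control-AMI (log2 fold change 3.20 ± 0.86, FDR: 0.0462) and passed in 2 of the 8 (highest FDR: 0.13, without Sham replicate 2), and Ifitm2 and Ifitm3 did not pass.

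Of 26 immediate early transcription factors tested, 5 rose and 1 fell (23.1%, against 4.16% of all genes tested, median log2 fold change 0.54). The AP-1 subunit Fosl1 was at 2.63, 0, 0.434 and 1.02 CPM in the Sham libraries and 17.6, 18, 12.6 and 44.0 CPM in the Control-AMI libraries (log2 fold change 4.37 ± 0.75, FDR: 0.00439). Fosl2 was at 193, 168, 88.9 and 160.2 CPM in the Sham libraries and 338, 709, 429.7 and 700.1 CPM in the Control-AMI libraries (log2 fold change 1.84 ± 0.27, FDR: 0.00121). Both late AP-1 subunits stood apart from Sham in each library. The best known members did not: Fos was at 205 to 982 CPM in Sham and 128 to 1240.2 CPM in Control-AMI (log2 fold change 0.08 ± 0.76, FDR: 0.97), Jun at 325 to 1239 CPM in Sham and 209.5 to 1297 CPM in Control-AMI (log2 fold change -0.06 ± 0.61, FDR: 0.972) and Egr1 at 856 to 3552 CPM in Sham and 1031 to 3246 CPM in Control-AMI (log2 fold change 0.26 ± 0.56, FDR: 0.842), with overlapping groups. The 4 Sham libraries alone differed several fold in each of these genes. Atf3 was at 18.6 to 42.0 CPM in Sham and 61.7 to 224 CPM in Control-AMI (log2 fold change 1.70 ± 0.48, FDR: 0.0709), above the threshold although its groups did not overlap. The small Maf proteins Maff (log2 fold change 1.52 ± 0.30, FDR: 0.00765) and Mafk (log2 fold change 0.99 ± 0.24, FDR: 0.0261) and Ier5 (log2 fold change 1.71 ± 0.26, FDR: 0.00155) rose. Mafk passed in 2 of the 8 fits without 1 library (highest FDR: 0.0855, without Sham replicate 2).

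Klf2, a factor known for its response to shear stress and for restraining inflammation, was the member that fell. It was at 352, 514, 363 and 574 CPM in the Sham libraries and 158, 153, 207 and 105 CPM in the Control-AMI libraries. Every Control-AMI library was below every Sham library (log2 fold change -1.54 ± 0.24, FDR: 0.00155).

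Some genes of growth arrest rose within the list of p53 targets and cell-cycle inhibitors. Of its 24 tested genes, 5 were higher and 1 lower (25.0%, against 4.16% of all genes tested, median log2 fold change 0.17). Gadd45g, a stress sensor that binds cyclin-dependent kinase 1, was at 22.1, 22.0, 7.37 and 20.5 CPM in the Sham libraries and 73.2, 84.1, 111 and 141 CPM in the Control-AMI libraries (log2 fold change 2.50 ± 0.38, FDR: 0.00189). The groups were well separated. Its relatives Gadd45a (9.97 to 26.3 CPM in Sham and 31.0 to 62.5 CPM in Control-AMI, log2 fold change 1.58 ± 0.33, FDR: 0.0112) and Gadd45b (7.92 to 34.5 CPM in Sham and 53.9 to 74.6 CPM in Control-AMI, log2 fold change 1.92 ± 0.35, FDR: 0.00472) rose as well. Cdkn1a, which encodes p21, was at 404, 164, 139 and 163 CPM in the Sham libraries and 749, 557, 825 and 789 CPM in the Control-AMI libraries (log2 fold change 1.75 ± 0.34, FDR: 0.0106). The polo-like kinase Plk3 was at 1.71 to 5.72 CPM in Sham and 12.4 to 19.9 CPM in Control-AMI (log2 fold change 2.21 ± 0.39, FDR: 0.00352). The member that fell was Bbc3, which encodes the death protein PUMA, at 9.01 to 19.4 CPM in Sham and 3.29 to 6.30 CPM in Control-AMI (log2 fold change -1.36 ± 0.35, FDR: 0.0401). Without 1 library Bbc3 passed in only 1 of the 8 fits (highest FDR: 0.143, without Sham replicate 2).

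Of 17 tested genes of apoptosis, 2 rose and none fell (11.8%, against 4.16% of all genes tested, median log2 fold change -0.08). Bcl2l1, whose main product Bcl-xL protects cells, was at 37.9, 37, 29.5 and 27 CPM in the Sham libraries and 86.2, 97.2, 112 and 110.3 CPM in the Control-AMI libraries (log2 fold change 1.63 ± 0.22, FDR: 0.000431), with no overlap. The inflammatory caspase Casp4 was at 7.81 to 16.1 CPM in Sham and 23.8 to 46.5 CPM in Control-AMI (log2 fold change 1.42 ± 0.37, FDR: 0.0412) and passed in 2 of the 8 fits without 1 library (highest FDR: 0.111, without Sham replicate 3). Among 45 genes of MAP kinase feedback and growth factors, 4 rose and none fell (8.89%, against 4.16% of all genes tested, with a median log2 fold change of 0.09). Of these 4, 3 are parts of EGF receptor signalling. The receptor Egfr was at 99.9 to 125 CPM in Sham and 187 to 224 CPM in Control-AMI (log2 fold change 0.86 ± 0.15, FDR: 0.00415) and its inhibitor Errfi1 at 134 to 247 CPM in Sham and 348 to 902 CPM in Control-AMI (log2 fold change 1.94 ± 0.33, FDR: 0.00427). Its ligand Ereg had 5 counts over the 4 Sham and 52 over the 4 Control-AMI libraries, a ratio of 10.8 after scaling with an exact 95% interval from 4.36 to 34.8 that covers counting error only. The phosphatase Dusp5 was at 2.39 to 7.51 CPM in Sham and 9.58 to 15.8 CPM in Control-AMI (log2 fold change 1.64 ± 0.39, FDR: 0.0249) and passed in 3 of the 8 fits without 1 library (highest FDR: 0.0773, without Sham replicate 4).

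Hypoxia-inducible factor targets and glycolysis held 44 tested genes, of which 6 rose and none fell (13.6%, against 4.16% of all genes tested). The median log2 fold change of the list was 0.36. Hk2, the hexokinase that commits glucose to glycolysis, was at 83.3, 121, 67.7 and 69.0 CPM in the Sham libraries and 216, 250.4, 320.2 and 474 CPM in the Control-AMI libraries (log2 fold change 1.89 ± 0.33, FDR: 0.00472). The glucose transporter Slc2a1 was at 4.13, 2.64, 3.04 and 5.46 CPM in the Sham libraries and 10.3, 14.6, 12.6 and 23.9 CPM in the Control-AMI libraries (log2 fold change 1.98 ± 0.38, FDR: 0.00678). Both genes act at the entry of the pathway, and neither showed overlapping groups. Higd1a, a mitochondrial protein induced by hypoxia, was at 63.2 to 82.0 CPM in Sham and 112 to 139.5 CPM in Control-AMI (log2 fold change 0.77 ± 0.16, FDR: 0.0112). Rab20, a small GTPase, had 2 counts over the 4 Sham and 126 over the 4 Control-AMI libraries, a ratio of 65.6 with an exact 95% interval from 17.8 to 548 for counting error only. Both Sham counts were in replicate 3, and 73 of the 126 were in Control-AMI replicate 4, without which the ratio of Rab20 was 36.7 (9.68 to 311). Without that library and Sham replicate 2, its FDR was 0.0546. Ddit4, given above, was another member that rose. Vegfa, the classic hypoxia target, was at 43.4 to 78.8 CPM in Sham and 41.2 to 114 CPM in Control-AMI (log2 fold change 0.33 ± 0.35, FDR: 0.651) with overlapping groups.

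Genes of protein folding passed the test about as often as all genes tested (4.16%). Of 35 heat shock chaperones tested, 1 rose (2.86%, median log2 fold change 0.15), which was the co-chaperone Bag3 at 57.7 to 83.3 CPM in Sham and 90.1 to 159.8 CPM in Control-AMI (log2 fold change 0.84 ± 0.22, FDR: 0.0441). Of 40 genes of the integrated stress and unfolded protein response, 2 rose (5.0%, median log2 fold change 0.12), and none fell in either list. They were Hspa5, the chaperone BiP of the endoplasmic reticulum, at 1002 to 2162 CPM in Sham and 2243 to 3779 CPM in Control-AMI (log2 fold change 1.04 ± 0.24, FDR: 0.0212), and the transcription factor Cebpb at 10.6 to 18.4 CPM in Sham and 33 to 144 CPM in Control-AMI (log2 fold change 2.20 ± 0.53, FDR: 0.0393). Without 1 library these passed as follows: Bag3 in 2 of the 8 (highest FDR: 0.132, without Control-AMI replicate 1), Hspa5 in 4 of the 8 (highest FDR: 0.0755, without Sham replicate 3) and Cebpb in 2 of the 8 (highest FDR: 0.122, without Sham replicate 4).

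The cytoskeleton showed a change in abundant transcripts. Of 27 tested YAP, SRF and cytoskeletal targets, 3 rose and 1 fell (14.8%, against 4.16% of all genes tested, median log2 fold change 0.24). Actb, cytoplasmic beta-actin, was at 8327, 9006, 9467 and 7946 CPM in the Sham libraries and 19153, 15950.1, 14748 and 18194 CPM in the Control-AMI libraries (log2 fold change 0.97 ± 0.19, FDR: 0.0067). The gene is often used as a constant reference, and here the groups did not overlap. Lima1, which crosslinks actin filaments, was at 298 to 353 CPM in Sham and 527 to 787 CPM in Control-AMI (log2 fold change 1.01 ± 0.20, FDR: 0.00876), and non-muscle myosin Myh9 was at 291 to 376 CPM in Sham and 459 to 652 CPM in Control-AMI (log2 fold change 0.66 ± 0.16, FDR: 0.0237). The member that fell was Ccn1, a matricellular YAP target, at 138 to 328 CPM in Sham and 39.8 to 79.5 CPM in Control-AMI (log2 fold change -1.93 ± 0.47, FDR: 0.0436). Its relative Ccn2 was at 31.2, 82.7, 17.3 and 112 CPM in the Sham libraries and 73.2, 116, 102 and 572 CPM in the Control-AMI libraries (log2 fold change 1.82 ± 0.92, FDR: 0.313), higher by the estimate but not past the threshold. Without 1 library, Myh9 passed in 3 of the 8 fits (highest FDR: 0.0718, without Sham replicate 4) and Ccn1 in 1 (highest FDR: 0.12, without Control-AMI replicate 2).

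Of 15 myofibroblast genes tested, 3 rose and none fell (20.0%, against 4.16% of all genes tested, median log2 fold change 0.28). Besides Thbs1 these were Tagln, the actin-binding protein SM22, at 3.38, 3.08, 4.77 and 5.81 CPM in the Sham libraries and 26.8, 20.6, 35.9 and 11.9 CPM in the Control-AMI libraries (log2 fold change 2.45 ± 0.34, FDR: 0.000564), and calponin Cnn2, at 48.8 to 77.0 CPM in Sham and 90.1 to 119.8 CPM in Control-AMI (log2 fold change 0.83 ± 0.21, FDR: 0.0301). Acta2, the defining smooth muscle actin of myofibroblasts, was at 15.4, 44.4, 18.2 and 25.6 CPM in the Sham libraries and 11.9, 27, 17.4 and 60.5 CPM in the Control-AMI libraries (log2 fold change 0.18 ± 0.49, FDR: 0.88). Its groups overlapped fully. Tagln and Acta2 are also genes of mural cells, whose summed markers were highest in Control-AMI replicate 4 (6383 CPM against 967 to 3121 CPM in the other 7 libraries). Without that library and Sham replicate 2, the log2 fold change of Tagln was 2.55 (FDR: 0.000665). Cnn2 passed in 2 of the 8 fits without 1 library (highest FDR: 0.0935, without Sham replicate 4).

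Tagln (chr9:45847405-45847654, minus strand) is shown because it holds a CArG box, the letters bound by serum response factor, in capitals.
Tagln: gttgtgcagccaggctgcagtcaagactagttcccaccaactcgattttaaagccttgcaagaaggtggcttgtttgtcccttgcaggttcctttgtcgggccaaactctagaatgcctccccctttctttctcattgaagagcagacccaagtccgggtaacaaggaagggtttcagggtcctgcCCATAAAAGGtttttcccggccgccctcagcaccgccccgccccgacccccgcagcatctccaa
The box lay from base -64 to -55. It was found in 1.39% of all protein-coding promoters, in 1.19% of those of tested genes and in 3.16% of those of the genes that rose, which is 10 of 316 promoters.

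Among 13 tubulins tested, 2 rose and 1 fell (23.1%, against 4.16% of all genes tested, median log2 fold change -0.02). Tuba1c was at 70.2, 90.2, 51.2 and 60.5 CPM in the Sham libraries and 326, 288, 298 and 209.5 CPM in the Control-AMI libraries (log2 fold change 2.04 ± 0.21, FDR: 5.75e-05), and Tubb6 was at 51.9 to 68.0 CPM in Sham and 119 to 151 CPM in Control-AMI (log2 fold change 1.26 ± 0.16, FDR: 0.000262). Both were separated from Sham in every library, though alpha-tubulin genes are similar in sequence and share reads to an unknown extent. Tubg1, the gamma-tubulin of centrosomes, was at 13.9 to 20.2 CPM in Sham and 5.33 to 9.97 CPM in Control-AMI (log2 fold change -1.22 ± 0.32, FDR: 0.0412) and passed in 1 of the 8 fits without 1 library (highest FDR: 0.119, without Control-AMI replicate 3).

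Of 21 collagen genes tested, 2 rose and none fell (9.52%, against 4.16% of all genes tested, with a median log2 fold change of -0.02), and none of the 6 tested fibrillar collagens passed the test. The 2 were the basement membrane chains Col4a1 at 735 to 1063 CPM in Sham and 1464 to 1971 CPM in Control-AMI (log2 fold change 0.80 ± 0.17, FDR: 0.0144) and Col4a2 at 289 to 319.8 CPM in Sham and 457 to 589 CPM in Control-AMI (log2 fold change 0.79 ± 0.14, FDR: 0.00469), which are transcribed from a shared promoter. Without 1 library, Col4a2 passed in all 8 fits and Col4a1 in 7 (FDR: 0.0602 without Sham replicate 2). Of 51 glycoproteins, proteoglycans and crosslinkers tested, 3 rose and 1 fell (7.84%, median log2 fold change 0.01). Vcan, the large proteoglycan versican of provisional matrix, was at 422, 354, 447 and 420.4 CPM in the Sham libraries and 904, 813, 911 and 826 CPM in the Control-AMI libraries (log2 fold change 1.07 ± 0.14, FDR: 0.000357). Sdc4, a cell-surface proteoglycan of focal adhesions, was at 46.2, 41.3, 48.6 and 87.1 CPM in the Sham libraries and 191, 239.9, 216 and 443 CPM in the Control-AMI libraries (log2 fold change 2.28 ± 0.33, FDR: 0.00134). In neither did the groups overlap. The crosslinking enzyme Lox was at 19.8 to 35.7 CPM in Sham and 42.2 to 75.8 CPM in Control-AMI (log2 fold change 1.08 ± 0.27, FDR: 0.0306) and passed in 3 of the 8 fits without 1 library (highest FDR: 0.105, without Sham replicate 2).

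Eln, which encodes elastin, fell. It was at 308, 356, 356 and 438 CPM in the Sham libraries and 194, 136, 179 and 166 CPM in the Control-AMI libraries, and each Control-AMI library was below the Sham range (log2 fold change -1.11 ± 0.18, FDR: 0.00226). In the TGF-beta and BMP pathway, 1 of 41 tested genes fell and none rose (2.44%, against 4.16% of all genes tested, with a median log2 fold change of 0.09). It was Inhbb, a subunit of activin B, at 41.3 to 71.3 CPM in Sham and 8.64 to 31.4 CPM in Control-AMI (log2 fold change -1.37 ± 0.32, FDR: 0.0208), which passed in 5 of the 8 fits without 1 library (highest FDR: 0.0585, without Control-AMI replicate 2).

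Some genes of ribosome assembly rose. Of 45 tested genes of ribosome biogenesis, 7 rose and none fell (15.6%, against 4.16% of all genes tested, median log2 fold change 0.53). Of 85 cytosolic ribosomal protein genes, none passed (median log2 fold change 0.08). Nop56, a core protein of nucleolar RNA-modifying particles, was at 134, 69.5, 76.8 and 65.6 CPM in the Sham libraries and 207, 260.1, 203 and 176 CPM in the Control-AMI libraries (log2 fold change 1.29 ± 0.24, FDR: 0.00464). Its partner Nop58 was at 146, 175, 138 and 113 CPM in the Sham libraries and 335, 559, 354 and 345 CPM in the Control-AMI libraries (log2 fold change 1.48 ± 0.30, FDR: 0.0106). Gnl3, nucleostemin, was at 63.3 to 102 CPM in Sham and 161 to 220.4 CPM in Control-AMI (log2 fold change 1.15 ± 0.24, FDR: 0.0104), and the nucleolar phosphoprotein Nolc1 was at 65.1 to 91.5 CPM in Sham and 145 to 188 CPM in Control-AMI (log2 fold change 1.04 ± 0.21, FDR: 0.00863). These 4 passed in every fit without 1 library. Wdr43, Ddx21 and Tsr1, which act in processing of ribosomal RNA, had log2 fold changes of 1.08, 1.09 and 1.22 and were less stable: Wdr43 in 1 of the 8 (highest FDR: 0.118, without Sham replicate 2), Ddx21 in 2 of the 8 (highest FDR: 0.0964, without Sham replicate 2) and Tsr1 in 4 of the 8 (highest FDR: 0.0952, without Control-AMI replicate 2).

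Of 25 regulators of mRNA decay and translation, 3 rose and none fell (12.0%, against 4.16% of all genes tested, median log2 fold change 0.31). The initiation factors Eif1a (27.7 to 44.1 CPM in Sham and 72.2 to 109.9 CPM in Control-AMI, log2 fold change 1.33 ± 0.26, FDR: 0.00692) and Eif5 (270.5 to 351 CPM in Sham and 498 to 739.8 CPM in Control-AMI, log2 fold change 0.93 ± 0.17, FDR: 0.00386) act in start codon selection, and Eif4ebp1 (15.0 to 30.4 CPM in Sham and 39.1 to 60.8 CPM in Control-AMI, log2 fold change 1.10 ± 0.26, FDR: 0.0239) restrains cap-dependent initiation. Eif4ebp1 passed in 4 of the 8 fits without 1 library (highest FDR: 0.0858, without Control-AMI replicate 2). Of 33 enzymes of polyamine, cholesterol and lipid metabolism, 3 rose and none fell (9.09%, against 4.16% of all genes tested, with a median log2 fold change of 0.44). Cyp51, the sterol demethylase, was at 28.2, 20.2, 19.1 and 13.3 CPM in the Sham libraries and 59, 54.1, 89.1 and 78.2 CPM in the Control-AMI libraries (log2 fold change 1.79 ± 0.29, FDR: 0.0019), with separate groups. The antizyme inhibitor Azin1 was at 54.2 to 65.3 CPM in Sham and 81.5 to 109 CPM in Control-AMI (log2 fold change 0.73 ± 0.18, FDR: 0.0258) and passed in 3 of the 8 fits without 1 library (highest FDR: 0.0871, without Control-AMI replicate 1). Of 81 nuclear genes of the respiratory chain none passed (median log2 fold change -0.11), and of 78 mitochondrial ribosomal proteins 1 fell (1.28%, median -0.16). None of the 13 mitochondrially encoded genes passed, with a median of -0.64, and their share of counts ranged from 4.10 to 12.5% within Sham alone.

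Some genes of the fibroblast identity list fell. Of its 29 transcription factors and receptors tested, 4 fell and none rose (13.8%, against 4.16% of all genes tested). Their median log2 fold change was -0.37, with 19 lower and 10 higher by the estimate. The libraries of the groups did not overlap for 5 lower and 3 higher genes. None of the 14 fibroblast markers passed (median log2 fold change 0.08). Sertad4, a small nuclear protein with a SERTA domain, was at 22.9, 35.6, 39.9 and 85.4 CPM in the Sham libraries and 8.43, 6.76, 6.30 and 4.53 CPM in the Control-AMI libraries (log2 fold change -2.81 ± 0.46, FDR: 0.00233). Snai2, the transcription factor Slug, was at 34.5, 32.1, 37.3 and 38.6 CPM in the Sham libraries and 8.05, 17.6, 10.2 and 15.2 CPM in the Control-AMI libraries (log2 fold change -1.47 ± 0.26, FDR: 0.00348). For both, no Control-AMI library reached the Sham range. Osr1, a factor of mesenchymal progenitors, was at 38.7 to 77.9 CPM in Sham and 17.6 to 30.0 CPM in Control-AMI (log2 fold change -1.35 ± 0.30, FDR: 0.0165), and Heyl, a target of Notch signalling, was at 69.4 to 96.3 CPM in Sham and 23.3 to 63.4 CPM in Control-AMI (log2 fold change -1.15 ± 0.29, FDR: 0.0343). Tcf21, the factor that marks resident cardiac fibroblasts, was at 12.0, 37, 20.8 and 67.6 CPM in the Sham libraries and 4.22, 9.01, 10.2 and 20.6 CPM in the Control-AMI libraries (log2 fold change -1.65 ± 0.67, FDR: 0.203). It was lower by the estimate, but its groups overlapped and it did not pass. Without 1 library, Osr1 passed in 6 of the 8 fits (highest FDR: 0.0614, without Control-AMI replicate 1) and Heyl in 2 (highest FDR: 0.119, without Control-AMI replicate 2).

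The fall with the smallest p-value was that of Mn1, a transcriptional co-regulator (ENSMUSG00000070576, chr5:111565228-111604899), at 36.8, 42.7, 39.5 and 70.4 CPM in the Sham libraries and 11.5, 9.76, 10.2 and 6.997 CPM in the Control-AMI libraries (log2 fold change -2.30 ± 0.28, FDR: 0.00017). Syt17, a member of the synaptotagmin family, was at 27, 42.2, 36.4 and 27.3 CPM in the Sham libraries and 6.90, 7.13, 9.20 and 4.94 CPM in the Control-AMI libraries (log2 fold change -2.23 ± 0.34, FDR: 0.00133). Both lay below the Sham range in every Control-AMI library. Adam19, a membrane metalloprotease that sheds neuregulin, was at 222, 246, 370.4 and 226 CPM in the Sham libraries and 86.6, 105, 129.8 and 65.4 CPM in the Control-AMI libraries (log2 fold change -1.46 ± 0.24, FDR: 0.00222). Hic1, a repressor that marks quiescent mesenchymal progenitors, was at 35.7 to 90.2 CPM in Sham and 16.1 to 25.7 CPM in Control-AMI (log2 fold change -1.55 ± 0.26, FDR: 0.00269). The phosphoinositide-binding protein Zfyve21 (19.1 to 56 CPM in Sham and 7.75 to 10.7 CPM in Control-AMI, log2 fold change -2.01 ± 0.33, FDR: 0.00232) and the smoothelin-like protein Smtnl2 (23.3 to 54.6 CPM in Sham and 6.17 to 16.5 CPM in Control-AMI, log2 fold change -1.78 ± 0.31, FDR: 0.00348) fell as well. All 6 passed in each of the 8 fits without 1 library.

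In the Wnt pathway, 1 of 20 tested genes rose and 2 fell (15.0%, against 4.16% of all genes tested, median log2 fold change -0.17). The ligand Wnt5a was at 16.9 to 29.7 CPM in Sham and 7.82 to 13.4 CPM in Control-AMI (log2 fold change -1.23 ± 0.31, FDR: 0.0332) and the receptor Fzd2 at 23.6 to 81.3 CPM in Sham and 10.9 to 17.6 CPM in Control-AMI (log2 fold change -1.70 ± 0.40, FDR: 0.0237), while the receptor Fzd4 rose, at 124 to 186 CPM in Sham and 248 to 289.7 CPM in Control-AMI (log2 fold change 0.74 ± 0.17, FDR: 0.0182). Without 1 library the calls were kept as follows: Wnt5a in 2 of the 8 (highest FDR: 0.102, without Sham replicate 4), Fzd2 in 4 of the 8 (highest FDR: 0.0909, without Sham replicate 4) and Fzd4 in 5 of the 8 (highest FDR: 0.0688, without Sham replicate 2). Of 257 genes named Zfp, which mostly encode DNA-binding repressors of low expression, 8 fell and 4 rose. This share of 4.67% was close to the 4.16% of all genes tested. Their median log2 fold change was -0.27, against -0.03 over all genes tested. Zfp65 was at 7.13, 7.92, 8.67 and 9.22 CPM in the Sham libraries and 0.383, 1.88, 1.94 and 1.23 CPM in the Control-AMI libraries (log2 fold change -2.57 ± 0.57, FDR: 0.0166) and Zfp420 was at 9.38 to 15.0 CPM in Sham and 2.06 to 4.13 CPM in Control-AMI (log2 fold change -2.16 ± 0.41, FDR: 0.00559). Values this low rest on few reads per library. Zfp423, a regulator of adipogenic fate in mesenchymal cells, was at 15.8 to 22.0 CPM in Sham and 6.38 to 10.3 CPM in Control-AMI (log2 fold change -1.12 ± 0.27, FDR: 0.026). Without 1 library these kept their calls as follows: Zfp65 in 7 of the 8 (highest FDR: 0.063, without Control-AMI replicate 1) and Zfp423 in 3 of the 8 (highest FDR: 0.0967, without Control-AMI replicate 2), and Zfp420 in all 8.

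The other large falls were in genes near the limit of detection. The cullin adapter Kctd21 was at 6.50 to 19.5 CPM in Sham and 0.412 to 2.63 CPM in Control-AMI (log2 fold change -2.67 ± 0.65, FDR: 0.0279) and Trim46 at 7.04 to 12.0 CPM in Sham and 0.823 to 3.38 CPM in Control-AMI (log2 fold change -1.99 ± 0.51, FDR: 0.0386). Without 1 library these calls held as follows: Kctd21 in 2 of the 8 (highest FDR: 0.109, without Sham replicate 4) and Trim46 in 0 of the 8 (highest FDR: 0.106, without Control-AMI replicate 3).

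**Figure D4:**
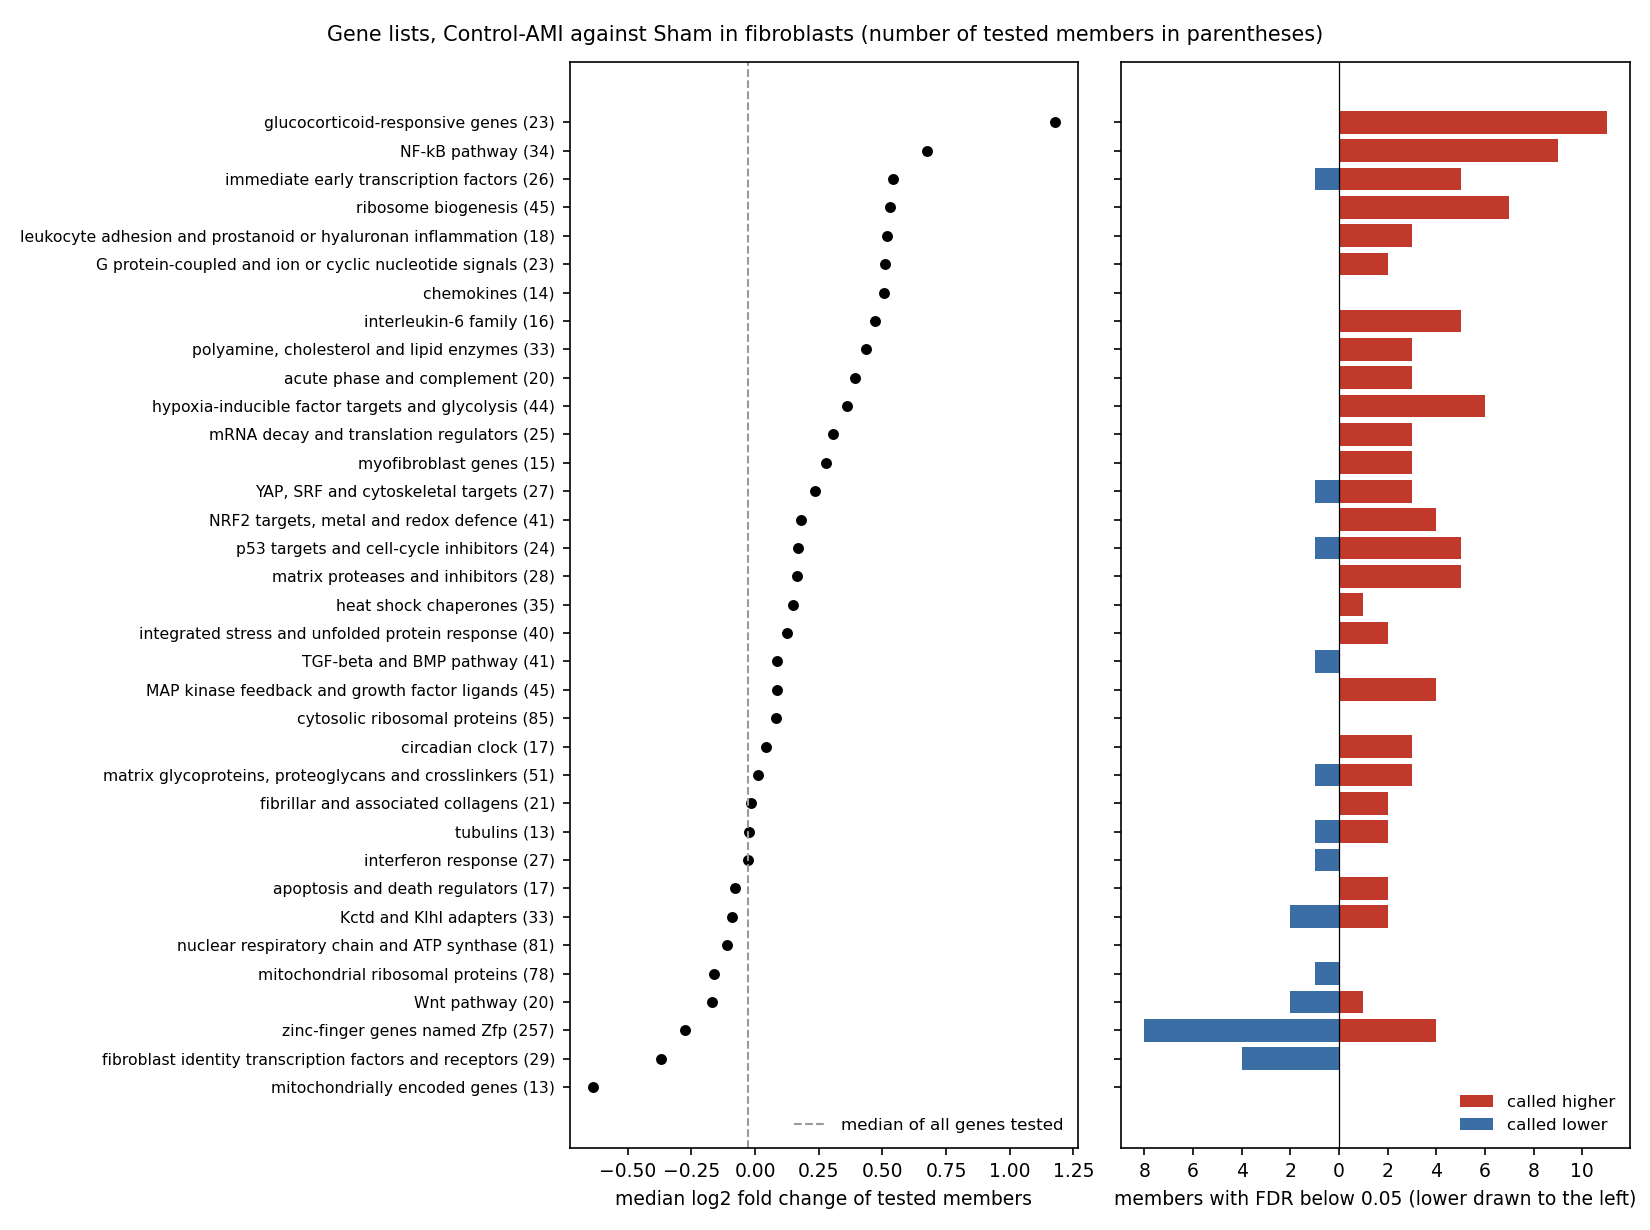
For each gene list, the median log2 fold change of Control-AMI against Sham over its tested genes (left) and the numbers of its genes called higher and lower (right). Marker lists are not plotted. Of the lists plotted, the glucocorticoid-responsive list has the highest share of called genes (11 of 23) and the highest median (1.18). The zinc-finger genes named Zfp, the longest list, have the most called genes (12 of 257, or 4.67%, against 4.16% of all genes tested). The mitochondrially encoded genes have the lowest median (-0.64) with none called.

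Some of the smallest p-values belonged to genes outside these lists. Lrrc8a, the obligatory subunit of the anion channel that cells open on swelling, was at 117, 101, 96.3 and 80.3 CPM in the Sham libraries and 321, 317, 265 and 363 CPM in the Control-AMI libraries (log2 fold change 1.68 ± 0.18, FDR: 5.75e-05). The groups did not overlap. Pakap, a locus that joins the paralemmin Palm2 and the kinase anchor Akap2, was at 436, 397, 346 and 356 CPM in the Sham libraries and 2020.4, 1612, 1318 and 2135 CPM in the Control-AMI libraries (log2 fold change 2.21 ± 0.23, FDR: 5.75e-05). Arid5a, an RNA-binding protein that stabilises the Il6 transcript, was at 9.38, 11.9, 6.94 and 6.15 CPM in the Sham libraries and 49.4, 88.6, 51.8 and 64.2 CPM in the Control-AMI libraries (log2 fold change 2.89 ± 0.31, FDR: 5.81e-05). It was lowly expressed in every Sham library and above that range in every Control-AMI library. The galactosyltransferase B4galt1 (234 to 284 CPM in Sham and 573 to 763 CPM in Control-AMI, log2 fold change 1.33 ± 0.15, FDR: 9.05e-05) and the lipid flippase Atp8b1 (115 to 143 CPM in Sham and 428 to 588 CPM in Control-AMI, log2 fold change 1.96 ± 0.22, FDR: 9.38e-05) were the others. Gprc5a, an orphan receptor, had 5 counts over the 4 Sham and 83 over the 4 Control-AMI libraries. This gave a ratio of 17.3 with an exact 95% interval from 7.12 to 54.6 for counting error only. The lowest ratio without 1 library was 13.4.

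Motif matches were counted in the 250 bases before the start of 316 genes that rose, 122 that fell and 10447 that were tested. The AP-1 site was present in 6.01% of promoters of genes that rose, 5.74% of those that fell and 4.37% of all tested. The NF-kB site was present in 6.65%, 4.10% and 4.38%. The cyclic AMP response element TGACGTCA was present in 4.43%, which was 14 promoters, 0.82% and 2.19%. The antioxidant core was present in 27.2%, 21.3% and 24%, and the metal core in 25.9%, 33.6% and 27.3%, so that the latter was more frequent in the genes that fell. The STAT site TTCNNNGAA was present in 7.28%, 5.74% and 6.33%, and the hypoxia core ACGTG in 24.1%, 14.8% and 21.5%. These shares are descriptions of letters in a short window and were not tested.

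The same comparison in sorted ECs, with 4 libraries in each group, shows where fibroblasts differed. In ECs 729 of 11615 genes passed the test (6.28%). A joint fit tested the difference between the AMI effects directly, and 379 of 11615 genes passed (3.26%), of which the effect in fibroblasts was above that in ECs for 101 (0.87%) and below for 278 (2.39%). Of the 444 genes called in fibroblasts that entered this test, 82 passed: 55 rose with a fibroblast effect above that of ECs, 21 fell with an effect below it, and 6 rose with an effect below it. For the other 362 no difference passed the threshold, which does not show that they acted alike. Thbs1, Mt1, Mt2 and Klf2 were among these, with log2 fold changes in ECs of 3.02, 4.64, 5.41 and -1.75.

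Several genes had an effect in fibroblasts above that in ECs. Adarb1, an RNA-editing adenosine deaminase, was at 24.5 to 39.7 CPM in Sham and 76.5 to 117 CPM in Control-AMI fibroblasts, and at 81.0 to 117 and 66.4 to 96.1 CPM in ECs (difference 2.01 ± 0.28 log2, FDR: 0.000373). Pakap was at 350.0 to 452 and 1377 to 2169 CPM in fibroblasts and at 751 to 1164 and 1011 to 1400.2 CPM in ECs (difference 1.85 ± 0.29 log2, FDR: 0.00104). In both, Sham fibroblasts were the lowest group. Arid5b, a chromatin co-factor of mesenchymal cells, was at 93.9 to 143 and 291 to 448 CPM in fibroblasts and at 367 to 437 and 300.0 to 430.4 CPM in ECs (difference 1.75 ± 0.28 log2, FDR: 0.00118). Prg4, which encodes lubricin, was at 28.0 to 42.8 and 108 to 299 CPM in fibroblasts and at 83.6 to 131 and 67 to 129 CPM in ECs (difference 2.71 ± 0.46 log2, FDR: 0.00182). The transcription factor Ets2 combined a rise in fibroblasts (log2 fold change 1.35 ± 0.29, FDR: 0.0165) with a fall in ECs, where it was at 419 to 753 CPM in Sham and 253 to 373 CPM in Control-AMI (difference 2.22 ± 0.37 log2, FDR: 0.00143). Prdm1, another transcription factor, fell in ECs, where it was at 40.1 to 79.6 CPM in Sham and 4.23 to 27.3 CPM in Control-AMI (difference 4.05 ± 0.75 log2, FDR: 0.00285), and it had too few counts in fibroblasts to be tested there alone.

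In the other direction, most of the genes with the smallest p-values were fibroblast genes that were low in Sham ECs. Dclk1, a microtubule kinase, was at 142 to 238 and 143 to 183 CPM in Sham and Control-AMI fibroblasts and at 0.478 to 3.98 and 19.8 to 57.3 CPM in ECs (difference -3.78 ± 0.52 log2, FDR: 0.000373). The endocytic receptor Lrp1 was at 989 to 1474 and 1066 to 1439 CPM in fibroblasts and at 28.2 to 59.1 and 111 to 471 CPM in ECs (difference -2.92 ± 0.45 log2, FDR: 0.00118). Their levels in fibroblasts overlapped between the groups. Beside these values, the fibroblast markers in the EC libraries summed to 2572 to 4281 CPM in Sham and 5451 to 16483 CPM in Control-AMI, and the part of that RNA in the result was not tested. Syt17 and Adcy7 differed from these, since they also fell within fibroblasts. Syt17 was at 27 to 42.7 CPM in Sham and 5.02 to 9.62 CPM in Control-AMI fibroblasts (difference -5.07 ± 0.70 log2, FDR: 0.000373). Its log2 fold change in fibroblasts alone was -2.23. Adcy7 had a log2 fold change of -1.26 in fibroblasts (FDR: 0.0153) and a difference of -3.81. For both, the fall in fibroblasts made only part of the difference, and the rest lay in the EC libraries. Without EC Sham replicate 3 or EC Control-AMI replicate 1, the total of 379 became 219 or 214.

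**Figure D5:**
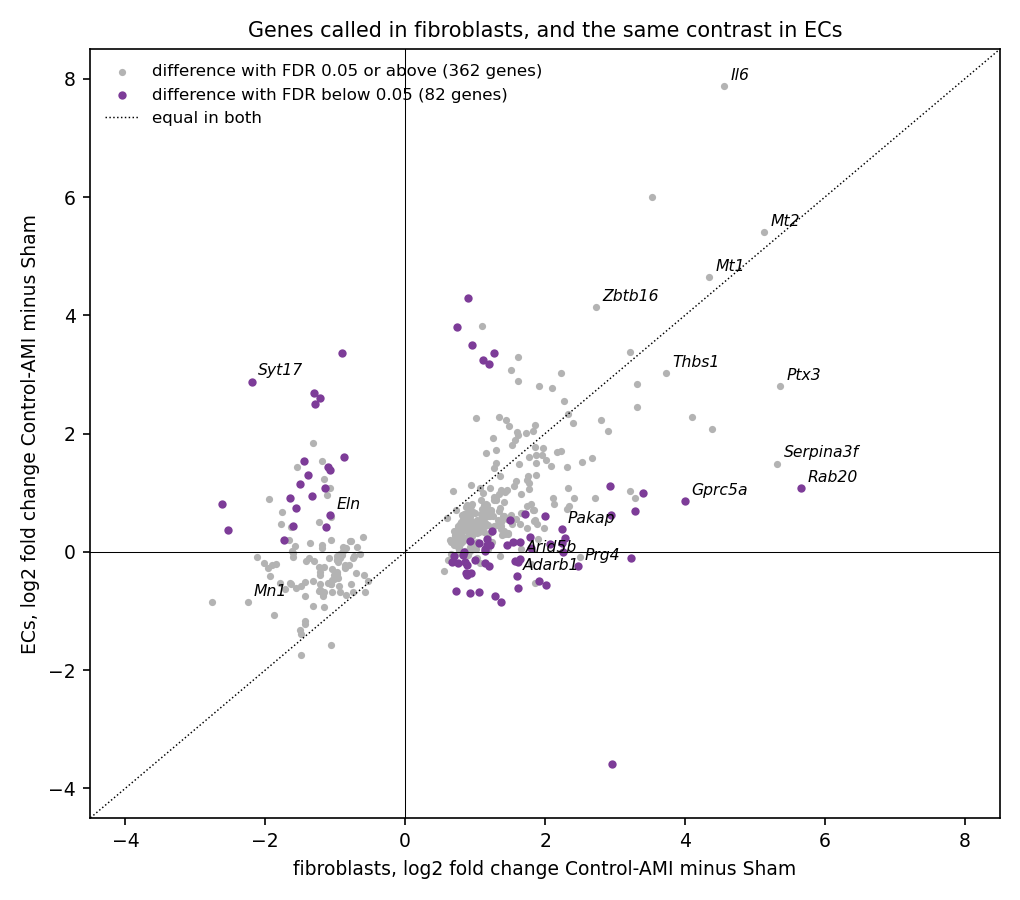
Log2 fold change of Control-AMI against Sham in ECs (vertical axis) by that in fibroblasts (horizontal axis) for the genes called in fibroblasts, with the 82 genes whose 2 effects differed in the joint test in purple and the other 362 in grey. Among the purple points, 55 lie on the right with a larger effect in fibroblasts.

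The third group had the same ischemia and reperfusion after 6 weeks of empagliflozin. Its values are set beside those above and share the Sham libraries, so that they are no independent test of them. Against Sham, 546 of 10691 genes passed in EMPA-Pre-AMI (5.11%). Between EMPA-Pre-AMI and Control-AMI, 0 genes passed in the same fit, which does not show that these groups were alike. Thbs1 was at 1139, 1127, 1284 and 1345 CPM in the EMPA-Pre-AMI libraries, a log2 fold change against Sham of 3.62 (FDR: 4.12e-06). Mt1 was at 4082, 6224, 4224 and 8664 CPM, or 4.12 (FDR: 8.34e-05). Zbtb16 was at 421, 418, 252 and 398 CPM, or 3.10 (FDR: 7.08e-06). Each of these libraries stood above the Sham range of the gene. Klf2 was at 153, 177, 139.7 and 95.3 CPM, or -1.67 (FDR: 0.000698). Mn1 was at 11.9, 7.89, 7.91 and 9.73 CPM, or -2.33 (FDR: 0.000156). Eln was at 190.5, 127, 163 and 124 CPM, or -1.27 (FDR: 0.000792). All EMPA-Pre-AMI libraries lay below the Sham range for Klf2, Mn1 and Eln.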

How the data were processed

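Sorted cell populations were profiled by QuantSeq 3′ mRNA sequencing (FWD kit, NextSeq 550). Per the labels and the study's methods, the authors trimmed reads with cutadapt 2.8, checked them with FastQC, quantified them with Salmon against the mouse genome GRCm39 with Ensembl genes, and analysed them with edgeR in R 4.0.3. They deposited 1 matrix of estimated counts per gene (95.5% of the values whole), which were rounded here to whole numbers. Such counts compare a gene between libraries, not genes with each other, and reads of similar genes may be divided between them. Total counts were 1946070 to 2821386 in the 12 fibroblast libraries, which limits genes of few CPM.

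Here, genes were kept by filterByExpr (at least 10 counts), scaled by TMM and tested by robust edgeR quasi-likelihood (edgeR 4.0.16, limma 3.58.1, R 4.3.3) with all 3 fibroblast groups in the fit and Benjamini-Hochberg adjustment over all 10691 genes. Values are CPM by replicate 1 to 4, log2 fold changes are Control-AMI against Sham with their SE, and intervals of ratios are exact binomial. Fibroblasts and ECs were compared by an interaction term. DESeq2 1.42.0, RLE factors, other filters, a replicate block, a sheet-number term and omission of each library were alternatives. The scripts were tested on simulated data. Named genes were the 10 largest and 10 most significant changes each way, up to 6 called genes per list with members named for their role, the 8 top differences from ECs each way and the sort markers, and some of these genes are not reported here. The comparison, members and gene lists were chosen with earlier results of these data known. Same-numbered libraries of Sham and Control-AMI correlated at 0.355, 0.0323, -0.0789 and 0.280 in their deviations, so the replicate numbers were not treated as pairs. Promoters were read from GRCm39 with GENCODE starts.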

Additional observations from a re-analysis of the deposited data

Results flagged for a closer look

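In the 118 named genes tested, a library stood apart from the other 3 of its group in 14 of 236 groups (5.93%), and chance gives about 1 in 20. Sham replicate 1 was high for Thbs1 at 173 CPM (other 3 libraries: 65.1 to 83.3 CPM), Nop56 at 134 CPM (other 3 libraries: 65.6 to 76.8 CPM), Cdkn1a at 404 CPM (other 3 libraries: 139 to 164 CPM) and Nfil3 at 43.5 CPM (other 3 libraries: 21.6 to 22.9 CPM). Sham replicate 3 was low for Gadd45g at 7.37 CPM (other 3 libraries: 20.5 to 22.1 CPM) and Cry2 at 49 CPM (other 3 libraries: 57.1 to 58.5 CPM), and high for Adam19 at 370.3 CPM (other 3 libraries: 222 to 246 CPM). It also held the only Sham counts of Rab20, at 0.867 CPM against 0 in the other 3. Sham replicate 4 was high for Sdc4 at 87.1 CPM (other 3 libraries: 41.4 to 48.6 CPM).

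Control-AMI replicate 4, the only Control-AMI library with a low sheet number and the one with the highest mural markers, was high for Rab20 at 30.1 CPM (other 3 libraries: 5.33 to 8.26 CPM), Adamts9 at 192 CPM (other 3 libraries: 49.9 to 60.6 CPM) and Cebpb at 144 CPM (other 3 libraries: 33 to 45.8 CPM). Control-AMI replicate 2 was high for Nolc1 at 188 CPM (other 3 libraries: 145 to 152 CPM) and Nop58 at 559 CPM (other 3 libraries: 335 to 354 CPM). Sham replicate 2 and Control-AMI replicates 1 and 3 stood apart for none of these genes.

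The effect of AMI differed between fibroblasts and ECs, by the interaction term of edgeR's quasi-likelihood test, in 379 genes. The fibroblast effect was above the EC effect on the log2 scale by 2.01 for Adarb1, 1.85 for Pakap, 1.75 for Arid5b, 1.63 for 4930523C07Rik, 2.22 for Ets2, 2.22 for Alpl, 2.71 for Prg4 and 4.05 for Prdm1, and the difference was -5.07 for Syt17, -3.78 for Dclk1, -3.79 for Frzb, -3.04 for Ptprd, -3.62 for Efhd1, -2.92 for Lrp1, -3.67 for Nnmt and -3.81 for Adcy7. FDR values of these 16 genes ranged from 0.000373 to 0.00285. The fibroblast markers in the EC libraries summed to 2572 to 4281 CPM in Sham and 5451 to 16483 CPM in Control-AMI. The part of that RNA in the negative differences was not tested.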

How the results depend on the processing

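For Control-AMI against Sham in fibroblasts, the 445 genes became 772 with DESeq2 (536 higher and 236 lower), which included all 445, and 744 (495 and 249) when the sheet number entered the model, which included 384 of them. RLE factors, no filter, a minimum of 10 counts in every library, no robust estimation and only the Sham and Control-AMI libraries gave 402 to 457 genes. Leaving out 1 library gave 228 to 596 genes. The counts moved by over 1.5 times without Sham replicates 2, 3 or 4 or Control-AMI replicates 1, 2 or 3. Added after seeing the data, leaving out Sham replicate 2 and Control-AMI replicate 4 together gave 195 genes (165 higher), of which 186 were among the 445, and a term for the summed endothelial markers gave 465, of which 369 were among the 445. None of the 445 genes changed sign under any of these settings. For the difference between fibroblasts and ECs, the 379 genes became 145 with at least 10 counts in every library, 551 with DESeq2 and 214 to 477 without 1 library, with changes of over 1.5 times without EC Sham replicate 3 or EC Control-AMI replicate 1. Over the 135 genes that met the rule for named genes, with their own alternatives, 2585 results kept direction and call, 354 kept direction only, 1 gained a call and 0 reversed. With the replicate block, 625 and 388 genes passed, 434 of the 625 being among the 445, and the check of the numbers gave no pairing, since 2 of the 4 same-number correlations between Sham and Control-AMI were 0.0323 and -0.0789. The cause of these shifts was not tested, beyond the smaller numbers of libraries or genes that some settings leave. Genes of few CPM are limited by depth.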

Other observations

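Genes of G protein-coupled, ion and cyclic nucleotide signals were not described above. Of 23 tested, 2 rose and none fell (8.7%, against 4.16% of all genes tested, with a median log2 fold change of 0.51). Rgs2, which shortens signals of Gq-coupled receptors, was at 12.1 to 37 CPM in Sham and 56.7 to 95 CPM in Control-AMI (log2 fold change 1.62 ± 0.30, FDR: 0.00556). The cyclic AMP phosphodiesterase Pde4b was at 149.6 to 173 CPM in Sham and 221 to 566 CPM in Control-AMI (log2 fold change 1.14 ± 0.27, FDR: 0.0279), and its call held in 2 of the 8 fits without 1 library (highest FDR: 0.0879, without Sham replicate 2).

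Of 33 Kctd and Klhl adapters of cullin ubiquitin ligases tested, 2 rose and 2 fell (12.1%, against 4.16% of all genes tested). Their median log2 fold change was -0.09. Kctd10 was at 38.6 to 49.2 CPM in Sham and 65.9 to 87.7 CPM in Control-AMI (log2 fold change 0.70 ± 0.17, FDR: 0.0327) and Kctd11 at 29.1 to 40.9 CPM in Sham and 41 to 96.5 CPM in Control-AMI (log2 fold change 1.11 ± 0.30, FDR: 0.0456), while Klhl42 was at 7.51 to 11.9 CPM in Sham and 1.23 to 3.45 CPM in Control-AMI (log2 fold change -1.89 ± 0.45, FDR: 0.0261). Each of these calls held in 1 of the 8 fits without 1 library, with highest FDR values of 0.098 (without Sham replicate 3), 0.12 (without Control-AMI replicate 2) and 0.0815 (without Sham replicate 2).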
